A study of Mus musculus with 2 samples.

Results

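The histone cluster genes are the genes of the replication-dependent histones, which lie in tight groups in the mouse genome and carry names of the older form Hist1h1e or Hist2h2ac. All 67 gene symbols of the deposited gene list that start with Hist1h, Hist2h, Hist3h or Hist4h were taken, of 32285 genes in all: 6 linker histone genes (H1), 18 of H2A, 18 of H2B, 12 of H3 and 13 of H4. The study compared subcutaneous tumours of mice on a control diet with those of mice on a diet without serine and glycine (-SG diet, here SG-free), with 1 library of single cells per diet. Each library paired gene expression with T cell receptor sequencing by the 10x immune profiling kit. The labels give no strain, age, tumour line or number of mice pooled, and no treatment other than the diet. The extraction text in the labels describes human heart tissue, whereas the organism, source and design fields all say mouse tumour.

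DNA in the nucleus is wound around octamers of the core histones H2A, H2B, H3 and H4, and a linker histone of the H1 family binds where it enters and leaves. The cluster genes are transcribed mainly in S phase, when new DNA has to be packed, and most of their messenger RNA ends in a stem-loop instead of a poly(A) tail. A method that primes cDNA from poly(A) tails, as this one does, therefore reads only part of it, and a few cluster genes, Hist1h1c and Hist1h2bc among them, are known to give polyadenylated transcripts as well. Replacement histones such as H3f3b and H2afz lie elsewhere, are polyadenylated and are made outside S phase too.

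With 1 library per diet no test between the diets was possible, and no p-value is given. UMIs (distinct tagged molecules) were summed per library and cell class and scaled to 1000000 UMIs of that class (CPM). A gene was counted as higher or lower where the ratio of CPM + 1 reached 1.5-fold, among genes with at least 30 UMIs over both sides. Intervals are exact 95% limits that cover counting error only, not differences between cells, mice or libraries. CPM values are not divided by transcript length, so a level is compared between cells for 1 gene and not between genes.

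The control library held 8466 barcodes with a median of 17540 UMIs, of which 8262 passed the filter. The SG-free library held 7999 with a median of 16770, of which 7913 passed. The cluster genes took 159377 UMIs, 0.0988% of the control total, and 173039 UMIs, 0.110% of the SG-free total. Tumour cells, set by at least 1 Krt20 and no Ptprc UMI, numbered 4121 and 4613, T cells with a T cell receptor beta contig 242 and 243, and macrophages, with C1qa, C1qb and C1qc at 0.1% of UMIs or more and no Krt20, 694 and 632. Between the classes, 6 and 7 barcodes were both tumour and T cells, 4 and 2 both T cells and macrophages, and none both tumour cells and macrophages. The libraries shared 104 barcode sequences.

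Of the epithelial markers checked beside Krt20, a keratin of gut epithelium, the tumour cells carried the keratin gene Krt18, while Krt8, Krt19 and Epcam were at or near 0. In control and SG-free tumour cells Krt20 itself stood at 158 and 248 CPM, Krt18 at 24.1 and 19.6, Krt8 at 0.653 and 0.303, and Epcam, an adhesion molecule of epithelium, at 0.0092 and 0. The collagen gene Col1a2 stood at 357 and 388 CPM and the proteoglycan gene Dcn at 260 and 497. The cells are therefore called tumour cells by the Krt20 rule alone. T cells and macrophages carried their markers: 2569 and 3661 CPM over 9 T cell genes, against 1.05 and 1.74 in tumour cells, and 21818 and 24135 CPM over 8 macrophage genes, against 47.9 and 48.7. The T cells with Mki67 UMIs also held Krt20 at 83.5 and 138 CPM and C1qa at 271 and 86.4. All T cells held 549 and 240.5 CPM of the 8 macrophage genes. Over 4 monocyte and neutrophil genes (Ly6c2, S100a8, S100a9 and Csf3r) they held 969 and 354 CPM. In Mki67-zero T cells these 4 genes were at 1318 and 667 CPM, and their source was not tested.

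Of the 67 genes, 66 matched a RefSeq gene and 61 had a promoter window in RefSeq, from 250 bases before the start to 50 after it (build GRCm38.p6). On chromosome 13 the genes formed 4 groups separated by at least 100000 bases, with 17, 5, 29 and 2 genes. A further 10 lay on chromosome 3, 2 on chromosome 11 and Hist4h4 alone on chromosome 6. Motifs were searched on both strands of the 250 bases before the start in each window. CCAAT was present in 50 of 61 windows (82.0%), against 33.9% of all 32851 windows, TATAAA in 29 (47.5% against 12.4%), the octamer ATTTGCAT in 14 (23.0% against 1.60%) and AAACACA, the H1 box, in 9 (14.8% against 6.25%). The motifs followed the families: CCAAT was in all H1, H2A and H2B windows and in 3 of 12 H4 windows, the octamer in 7 of 17 H2A and 7 of 16 H2B windows, and the H1 box in 5 of 6 H1 windows. Where an H2A and an H2B gene start back to back, their windows overlap. A site in the shared bases is then counted for both genes, so the windows are not all separate.

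The 150 bases before the start of 4 of the 6 linker histone genes, chosen to span those far lower, partly lower and nearly level without Mki67 and the one nearly unread in tumour cells, are shown 5′ to 3′ on the strand of each gene, with every match to these motifs in capitals. Hist1h1e (RefSeq H1f4) is at chr13:23622559-23622708 on the minus strand, Hist1h1b (H1f5) at chr13:21780626-21780775 on the minus strand, Hist1h1c (H1f2) at chr13:23738657-23738806 on the plus strand and Hist1h1a (H1f1) at chr13:23763518-23763667 on the plus strand. The H1 box, in capitals near the left end of the other 3, had no match in the whole window of Hist1h1a.
Hist1h1e: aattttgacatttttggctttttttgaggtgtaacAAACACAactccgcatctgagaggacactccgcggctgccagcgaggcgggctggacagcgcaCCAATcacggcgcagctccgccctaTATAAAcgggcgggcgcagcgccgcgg
Hist1h1b: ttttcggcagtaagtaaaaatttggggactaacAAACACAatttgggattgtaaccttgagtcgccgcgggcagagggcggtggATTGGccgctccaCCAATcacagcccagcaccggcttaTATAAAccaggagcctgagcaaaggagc
Hist1h1c: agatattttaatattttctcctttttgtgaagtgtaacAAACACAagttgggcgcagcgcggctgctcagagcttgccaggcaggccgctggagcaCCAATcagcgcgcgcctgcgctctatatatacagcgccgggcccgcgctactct
Hist1h1a: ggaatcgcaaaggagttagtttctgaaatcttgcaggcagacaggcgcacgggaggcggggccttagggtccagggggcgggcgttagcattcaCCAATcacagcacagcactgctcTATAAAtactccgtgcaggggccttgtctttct

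The next pair shows H2A genes that were far lower in cells without Mki67, Hist1h2ae (H2ac8) at chr13:23571221-23571370 on the minus strand and Hist1h2af (H2ac10) at chr13:23533725-23533874 on the plus strand, with capitals for the same motifs. Among genes with a promoter window, Hist1h2ae is 1 of 9 H2A genes that start back to back with an H2B gene. Its partner is Hist1h2bg, with 180 bases between the starts.
Hist1h2ae: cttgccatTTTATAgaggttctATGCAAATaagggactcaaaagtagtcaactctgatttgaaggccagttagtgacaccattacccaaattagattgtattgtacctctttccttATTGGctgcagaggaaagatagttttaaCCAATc
Hist1h2af: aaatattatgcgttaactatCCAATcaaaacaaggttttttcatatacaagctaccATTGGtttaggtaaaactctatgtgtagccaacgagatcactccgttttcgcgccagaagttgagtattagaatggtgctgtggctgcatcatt

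The last set holds 4 of the 5 genes of the small chromosome 13 group, which was read more in macrophages and T cells than in tumour cells. These are the divergent pairs Hist1h2ah (H2ac12, chr13:22035644-22035793, minus strand) with Hist1h2bk (H2bc12, chr13:22035671-22035820, plus strand), and Hist1h2ag (H2ac11, chr13:22042950-22043099, minus strand) with Hist1h2bj (H2bc11, chr13:22043048-22043197, plus strand). The sequences of each pair overlap on opposite strands, so CCAAT in one is ATTGG in the other, and both forms are in capitals.
Hist1h2ah: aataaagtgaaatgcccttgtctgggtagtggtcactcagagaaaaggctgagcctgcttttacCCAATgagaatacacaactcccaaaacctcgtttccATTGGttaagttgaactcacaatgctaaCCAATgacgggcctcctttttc
Hist1h2bk: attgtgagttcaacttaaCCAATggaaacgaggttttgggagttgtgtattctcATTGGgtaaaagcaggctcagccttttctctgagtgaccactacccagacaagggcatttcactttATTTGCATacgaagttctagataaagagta
Hist1h2ag: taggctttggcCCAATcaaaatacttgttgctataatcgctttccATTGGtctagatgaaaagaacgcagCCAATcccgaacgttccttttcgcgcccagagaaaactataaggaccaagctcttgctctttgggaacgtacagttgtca
Hist1h2bj: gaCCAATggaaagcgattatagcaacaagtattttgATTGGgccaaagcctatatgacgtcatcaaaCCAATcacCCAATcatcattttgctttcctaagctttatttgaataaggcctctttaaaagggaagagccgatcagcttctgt

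In tumour cells the cluster genes went with Mki67, a nuclear protein of cycling cells. Cells with at least 1 Mki67 UMI made up 49.6% of control and 39.6% of SG-free tumour cells. The sum of all 67 genes was 1453 CPM in these cells and 377 CPM in Mki67-zero cells of the control library, a ratio of 3.85 (3.79 to 3.92). In the SG-free library it was 1856 against 440 CPM, a ratio of 4.22 (4.16 to 4.27). Of 58 genes with enough UMIs, 50 were higher in Mki67-positive cells in the control library and 49 in the SG-free library, where 6.26% and 6.28% of all genes tested were higher. In both libraries 48 were higher, against 5.4% of all genes. The median log2 ratio over the 58 genes was 1.53 and 1.66, beside -0.01 and -0.02 over all genes tested. Mki67-positive cells were also deeper, with medians of 30251 and 30214 UMIs against 21346 and 19732. With each cell thinned to 5000 UMIs and the classes set anew on the thinned counts, 38 genes were higher in both libraries. That split is not the same set of Mki67-positive cells at equal depth, and the share of all genes was not computed for it.

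**Figure D1:**
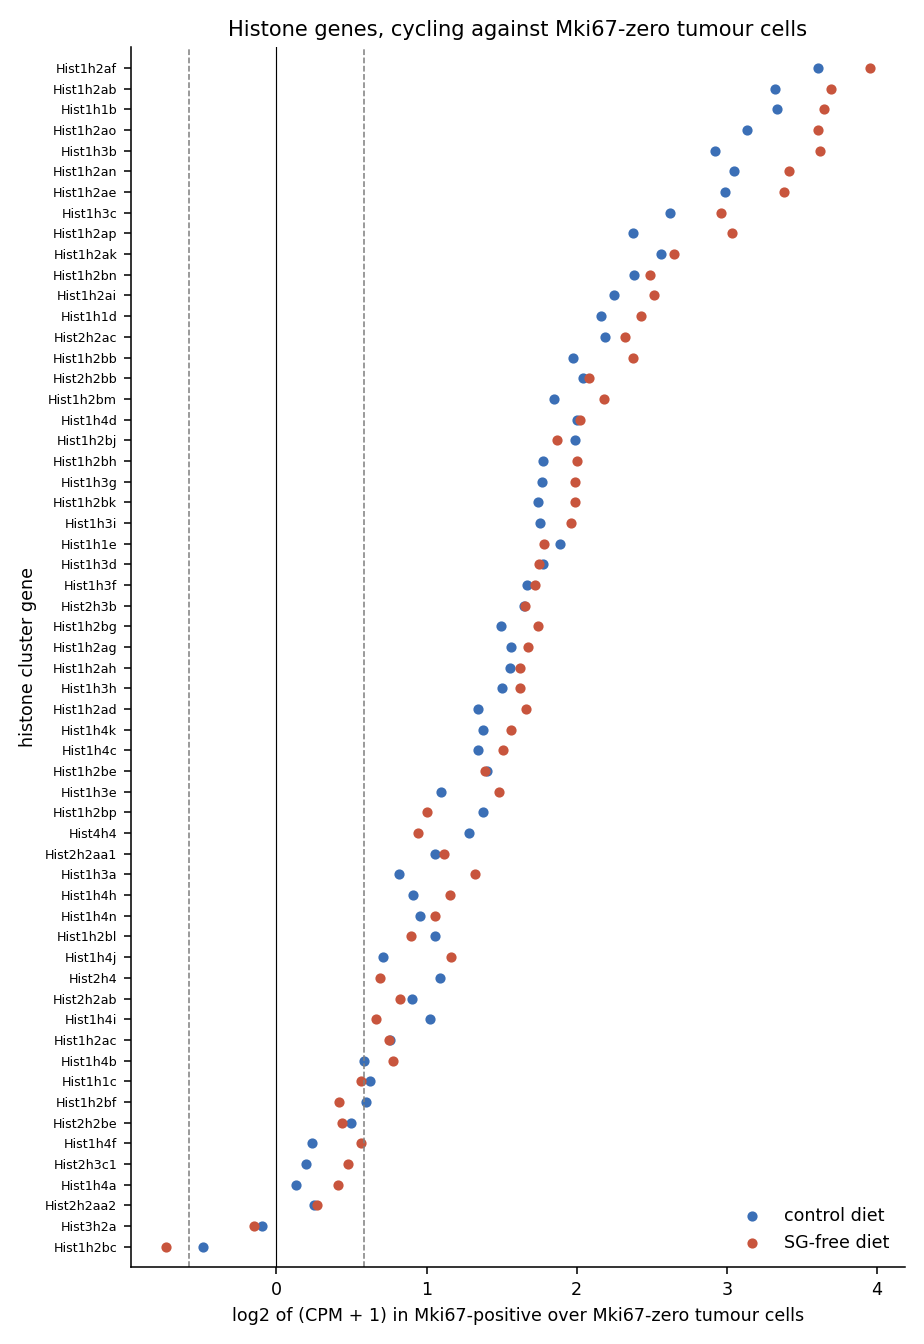
Log2 ratio of CPM + 1 in Mki67-positive over Mki67-zero tumour cells (x axis) for the 58 cluster genes with at least 30 UMIs in each library (y axis, ordered by the mean ratio), with 1 point per library and dashed lines at 1.5-fold. Hist1h2af, with count ratios of 23.2 and 27.9, is at the top, and Hist1h2bc, with 0.709 and 0.595, is at the bottom.

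The linker histones differed from each other in how far they went with Mki67. Hist1h1b (H1.5), read mostly in dividing cells, was at 204 CPM in Mki67-positive and 19.4 in Mki67-zero cells of the control library, 10.5 times higher (9.83 to 11.3), and at 246 against 18.8 CPM in the SG-free library, 13.1 times (12.3 to 14.0). Hist1h1e (H1.4), a linker histone of most tissues, was at 230 against 61.6 CPM, 3.74 (3.59 to 3.89), and 354 against 102 CPM, 3.46 (3.36 to 3.56). Hist1h1d (H1.3) lay between them at 4.76 (4.35 to 5.21) and 5.63 (5.26 to 6.04). Hist1h1c (H1.2), the linker histone known for transcripts outside S phase, was at 52.0 against 33.4 CPM and 75.1 against 50.4, ratios of 1.56 (1.46 to 1.66) and 1.49 (1.42 to 1.56). It was the gene nearest the 1.5-fold limit from below in the SG-free library, at 1.48 with the added CPM. The mix of H1 transcripts thus differed between the states. Hist1h1b gave 37.4% of H1 UMIs in Mki67-positive and 15.3% in Mki67-zero control cells (32.0% and 9.96% SG-free), while Hist1h1c gave 9.53% and 26.4% (9.77% and 26.8% SG-free).

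The largest ratio in each library was that of an H2A gene, Hist1h2af. It was at 23.4 against 1.01 CPM and 32.5 against 1.16 CPM, ratios of 23.2 (17.3 to 32.0) and 27.9 (21.9 to 36.2). Hist1h2ae, the H2A gene with most UMIs, was at 211 against 25.8 CPM, 8.20 (7.72 to 8.72), and 254 against 23.6 CPM, 10.8 (10.2 to 11.4). Hist1h2ab was at 13 (10.9 to 15.6) and 16.3 (14.1 to 18.9), and Hist1h2ao at 10.2 (8.97 to 11.7) and 14.1 (12.6 to 15.9). Summed over the family, H2A stood at 472 against 62.1 CPM in the control and 604 against 63.5 CPM in the SG-free library.

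H3 and H4, the pair that forms the inner tetramer of the nucleosome, showed the same direction with smaller sums. H3 genes summed to 152 against 41.4 CPM in the control and 186 against 42.5 CPM in the SG-free library, with Hist1h3b at 21.4 against 1.97 CPM and 27.0 against 1.28. H4 genes summed to 128 against 46.0 CPM and 144 against 50.7. Among H4 genes Hist1h4n had ratios of 2.12 (1.83 to 2.46) and 2.28 (1.99 to 2.62), and Hist1h4i 2.12 (1.92 to 2.35) and 1.65 (1.48 to 1.83). Hist1h4i was the gene just past 1.5-fold in the SG-free library, at 1.58 with the added CPM.

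H2B was the family that stood nearest to equal, at 155 against 101 CPM in the control and 153 against 95.4 in the SG-free library, and Hist1h2bc carried most of the Mki67-zero sum. Hist1h2bc was at 54.6 CPM in Mki67-positive and 77.1 in Mki67-zero control cells, a ratio of 0.709 (0.676 to 0.743), and at 42.7 and 71.8 CPM in the SG-free library, 0.595 (0.566 to 0.626). It was the sole cluster gene called lower, in the SG-free library alone. RefSeq gives it a span of 8282 bases, and 6 of the 66 matched genes, H2B genes all, span more than 1000 bases there: Hist1h2be with 37455, Hist1h2bp with 14079, Hist1h2bq and Hist1h2br with 3788 each, and Hist2h2be with 2667. The other 60 span 375 to 911 bases. Most other H2B genes went with Mki67, such as Hist1h2bn at 11.2 against 1.34 CPM and 14.2 against 1.72.

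Besides Hist1h2bc, the genes not higher in both libraries were few and mostly low. Within 1.5-fold in both were 6 genes, of which Hist2h2be and Hist1h4a had at least 100 UMIs in each library. Hist2h2be was at 3.09 against 1.90 CPM and 2.30 against 1.44, with count ratios of 1.63 (1.26 to 2.12) and 1.60 (1.21 to 2.13), and its place within 1.5-fold came from the added CPM. The added CPM also held Hist2h3c1, Hist1h4f and Hist2h2aa2 within 1.5-fold. Hist2h3c1 had count ratios of 1.86 (0.836 to 4.55) and 4.24 (1.925 to 10.6). Those of Hist1h4f were 2.18 (0.9545 to 5.599) and 5.41 (2.39 to 14.4), and those of Hist2h2aa2 2.03 (0.96 to 4.66) and 1.79 (1.01 to 3.27). With 0.2 CPM added, Hist3h2a and Hist1h4a alone stayed within it in both libraries. Hist1h2bf and Hist1h1c were higher in the control library alone, at 1.51 with the added CPM for Hist1h2bf, the nearest outside the limit. Hist1h4b, at 1.498 just inside it there, was higher in the SG-free library alone. The 9 genes left had too few UMIs for the split, and 2 of them, Hist1h2ba and Hist1h2aa, had no UMI in any barcode.

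Shares of cells with a UMI were compared after each cell was thinned to 5000 UMIs. Hist1h2af was found in 10.4% of Mki67-positive and 0.492% of Mki67-zero control cells, and in 13.2% and 0.403% of SG-free cells (33.8% and 1.83%, 39.5% and 1.79% before thinning). Hist1h1e was found in 50.6% and 23.9%, and in 64.1% and 37.2% (84.6% and 59.3%, 92.7% and 73.5% before thinning). Hist1h2bc was found in 20.2% and 24.5% of control cells and in 16.7% and 27.0% of SG-free cells. Before thinning its shares were 52.7% and 52.8%, and 50.0% and 54.0%. Thinning left out 12 and 45 control cells and 15 and 59 SG-free cells, in the same order.

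Cells without a Mki67 UMI were not all resting. They held a median of 12 and 7 UMIs of 40 S phase and G2/M genes, against 156 and 131 in Mki67-positive cells. A stricter class, chosen after the data were seen, kept the Mki67-zero tumour cells with at most 2 such UMIs, 202 control and 482 SG-free cells with median depths of 13324 and 11494 UMIs. In these the cluster genes still summed to 435 CPM (410 to 460) and 524 CPM (505 to 543). Of the genes tested 44 of 55 and 44 of 57 were higher in Mki67-positive cells, where 16.6% and 14.1% of all genes were. In both libraries 42 were higher, 8 were within 1.5-fold and Hist1h2bc was lower.

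The percents below compare CPM, a share of all UMIs, between this stricter class and Mki67-positive cells. They do not compare UMIs per cell. Cells of the stricter class were shallower, with medians of 13324 and 11494 UMIs against 30251 and 30214. A gene can therefore hold or raise its CPM without more UMIs per cell, and UMIs per cell were not compared. Some of the genes that were far higher with Mki67 all but left this class. Hist1h2af was at 0 UMIs in the control and 1 UMI in the SG-free library. Hist1h1b kept 2.58% (1.41 to 4.33) and 3.27% (2.40 to 4.35) of its Mki67-positive level, Hist1h2ao 2.78% and 4.04%, and Hist1h2ae 8.01% (5.84 to 10.7) and 5.44% (4.32 to 6.77). A middle set kept a part of their level: Hist1h1e, at 59.0 and 101 CPM, kept 25.6% (21.8 to 30) and 28.6% (26.3 to 31.0), and Hist1h4d 25.4% and 24.6%. At the other end, as shares of all UMIs, Hist1h2bc was at 133.8 and 120.7 CPM or 245% (219 to 273) and 282% (259 to 307). Hist1h1c was at 55.3 and 83.1 CPM or 106% (89.5 to 125) and 111% (101 to 122). Hist1h4n, also within 1.5-fold in both libraries, kept 76.1% and 87.2%. Also within it in both were Hist1h2bf at 96.2% and 86.5%, Hist1h2ac at 78.0% and 85.1%, and Hist2h2aa1 at 63.9% and 64.7%. Hist1h4a at 123% and 110% and Hist2h2be at 60.7% and 59.5% were too, as was Hist2h2aa2. The genes listed after Hist1h4n had 3 to 44 UMIs in this class. Hist1h4n, Hist1h2ac and Hist2h2aa1 had been higher in both libraries against all Mki67-zero cells. Hist1h3e, with 59.1% and 50.2%, was still higher in Mki67-positive cells of both libraries, and Hist1h4h, with 105% and 59.9%, in those of the SG-free library.

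**Figure D2:**
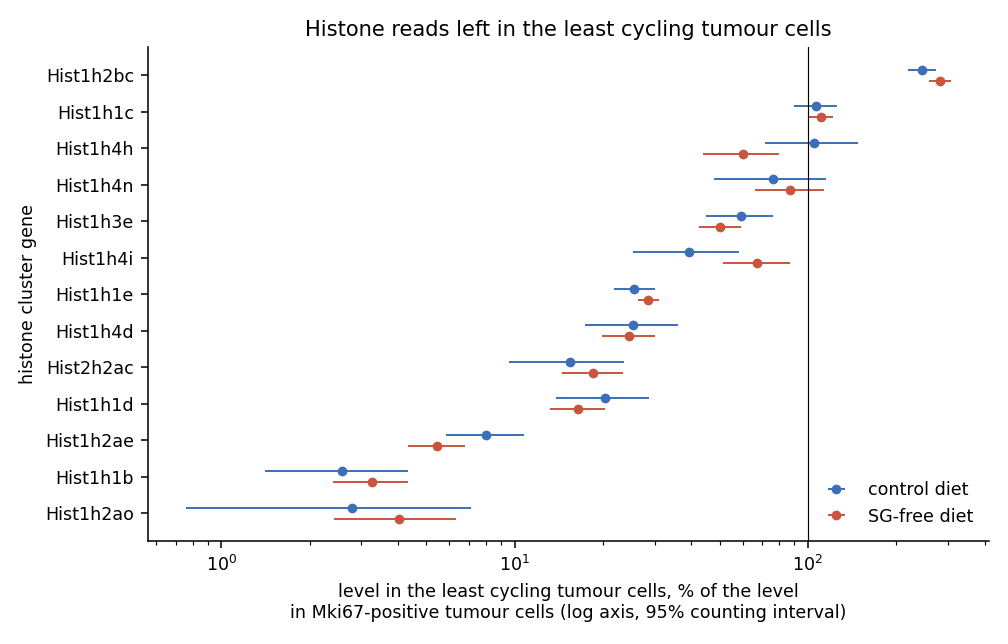
CPM in the least cycling tumour cells as a percent of the CPM in Mki67-positive tumour cells (log x axis), for 13 cluster genes (y axis). The least cycling cells are Mki67-zero with at most 2 UMIs of the S phase and G2/M genes, and are shallower. Points are libraries and bars are exact 95% counting intervals, and Hist1h2bc at 245% and 282% stands to the right of the line at 100%.

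Among Mki67-positive tumour cells, the sum was highest in the middle of the cycle order. Cells were put in 4 bins of near-equal size by the share of S phase UMIs in their S phase and G2/M UMIs, from the lowest share in bin 1 to the highest in bin 4. The bins are ranges of a score, and from 33 to 210 cells lay within 0.02 of each edge between them. From bin 1 to 4 the sums were 1385, 1806, 1610 and 1000 CPM in the control and 1273, 2346, 2467 and 1375 CPM in the SG-free library. For this, 53 genes were taken with at least 100 UMIs in each library, summed over tumour cells, T cells and macrophages. Of these, 39 were highest in bin 2, 7 in bin 3, 6 in bin 1 and 1, Hist1h4a, in bin 4 in the control library. In the SG-free library 25 were highest in bin 2, 25 in bin 3, 1 in bin 1 and 2, Hist2h2be and Hist1h1a, in bin 4. Hist1h1a had at most 5 UMIs in any control bin and 2 in any SG-free bin. The median depths of the bins lay between 28816 and 32603 UMIs.

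Single genes showed both patterns. Hist1h1b was at 153, 256, 253 and 156 CPM from bin 1 to 4 of the control and at 126, 301, 368 and 200 of the SG-free library. Hist1h2bc was highest where the S share was low in the control, at 71.1, 67.2, 41.1 and 33.5 CPM, and varied less in the SG-free library, at 43.2, 46.6, 44.9 and 32.2. Hist1h4i declined in order in both, from 33.5 to 15.9 CPM in the control and from 17.8 to 13.9 in the SG-free library.

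**Figure D3:**
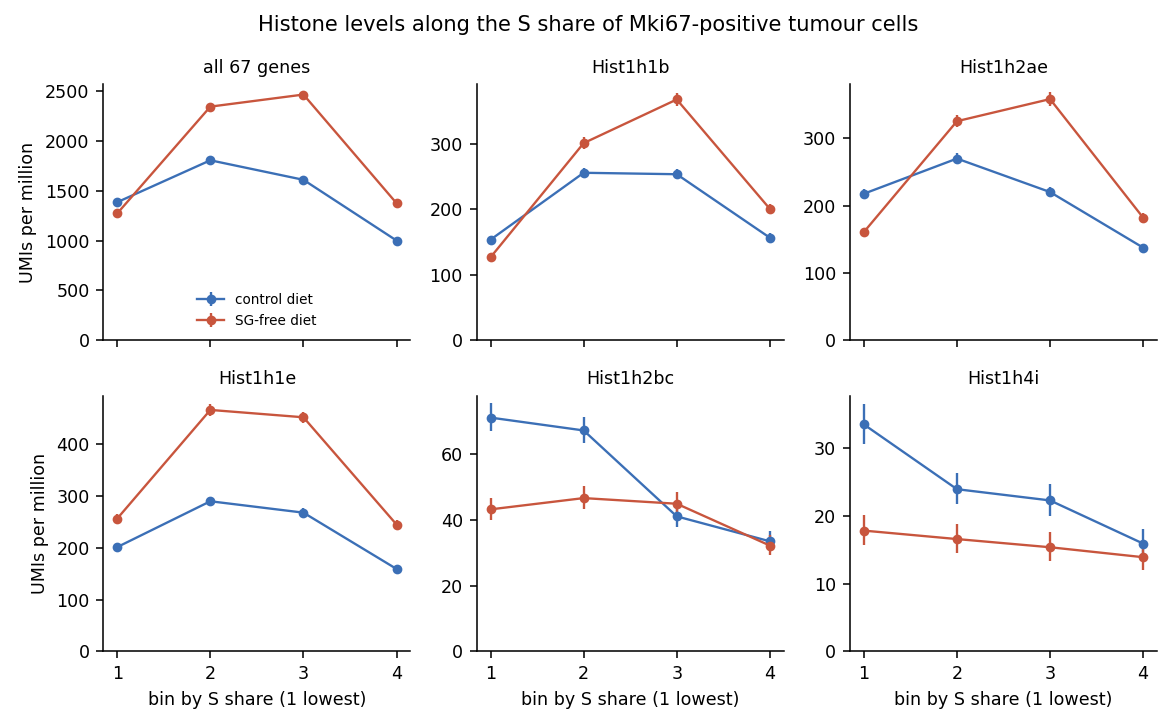
CPM (y axis) of all 67 genes together and of 5 genes by bin of the S share in Mki67-positive tumour cells (x axis, 1 lowest), with 1 line per library and exact 95% counting intervals as bars. The sum peaks in bin 2 at 1806 CPM in the control and in bin 3 at 2467 CPM in the SG-free library.

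The genes that make, process and place histones varied in part with Mki67. Of 10 replacement histone genes tested, 6 were higher in Mki67-positive tumour cells in each library, and none was lower. H2afz, the H2A.Z replacement histone, was at 2231 against 853 CPM in the control library, and Cenpa, the H3 of centromeres, at 306 against 43.9. The H3.3 genes did not reach 1.5-fold, H3f3a at 483 against 495 CPM and H3f3b at 1759 against 1515. Of 12 genes of histone RNA processing 3 and 4 were higher, among them Slbp, the stem-loop binding protein, at 165 against 96.3 CPM in the control library. Of 12 histone chaperones 5 and 6 were higher. Ssrp1, a subunit of the FACT chaperone, was at 256 against 169 CPM in the control library, a log2 ratio of 0.60. The S phase list was higher in 12 and 15 of 20 genes and the G2/M list in 20 of 20 in both.

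In T cells too the sum was higher with Mki67, on far fewer UMIs. Their 47 control and 77 SG-free Mki67-positive cells summed to 2179 and 2212 CPM of cluster genes, against 571 and 523 in 195 and 166 Mki67-zero cells, ratios of 3.82 (3.44 to 4.23) and 4.23 (3.86 to 4.64). Of the genes with enough UMIs 15 of 17 and 28 of 32 were higher, where 15% and 14.2% of all genes were. These counts became 3 and 8 with at least 100 UMIs a gene. They became 1 and 1 after thinning to 1000 UMIs a cell, with Mki67 read anew from the thinned counts. The genes within 1.5-fold were Hist1h4n and Hist1h4i in the control and Hist1h4i, Hist1h2bc, Hist1h4c and Hist1h1c in the SG-free library. Hist1h1b was at 290 against 24.9 CPM and 240 against 14.2, and Hist1h1e at 267 against 86.5 and 303 against 85.3. Hist1h2bc was higher with Mki67 in control T cells, at 52.5 against 22.5 CPM, 2.33 (1.32 to 4.27), and at 2.09 (0.929 to 4.85) in those without Krt20 or C1q UMIs. In all T cells without Krt20 or C1q UMIs, 32 and 54 Mki67-positive and 180 and 148 Mki67-zero cells, the sums were 2713 against 720 CPM and 2771 against 499. The most frequent receptor chain was in 64 of the 243 SG-free T cells, 26 of them Mki67-positive, and in 5 of the 242 control T cells. Hemoglobin genes summed to 1702 CPM in the Mki67-zero control T cells and to 0 in the SG-free ones, and their part in the values was not tested.

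Macrophages with Mki67 UMIs, 226 control and 150 SG-free cells, also had more cluster transcripts. They summed to 2450 and 2695 CPM, against 534 and 490 in 468 and 482 Mki67-zero macrophages, ratios of 4.59 (4.38 to 4.82) and 5.50 (5.24 to 5.77). Of 47 genes 43, and of 42 genes 41, were higher, where 11.8% and 11.1% of all genes were. The genes within 1.5-fold were Hist2h2aa1, Hist1h4i, Hist1h4h and Hist1h2bc in the control and Hist1h2bc alone in the SG-free library. Hist1h2bc was at 167 against 119 CPM and 103 against 71.9, so it was read well in both states of these cells. The 5 tumour markers together were at most 1.89 CPM in any macrophage class. Hemoglobin genes summed to 596 CPM in Mki67-zero control macrophages and 0 in SG-free ones.

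Many cluster genes were higher in Mki67-positive macrophages than in Mki67-positive tumour cells. The sum was 1.69 times (1.65 to 1.73) the tumour level in the control and 1.45 times (1.42 to 1.49) in the SG-free library. Of 57 genes 38 were higher and 1, Hist2h2ab, lower in the control, and of 58 genes 28 were higher and none lower in the SG-free library. These classes differed widely, since 53.6% and 54.9% of all genes were past 1.5-fold in 1 direction or the other. Of all genes, 23.2% and 22.0% were higher in macrophages. T cells against tumour cells gave 32 higher and 2 lower of 54, and 23 higher and 3 lower of 58, beside 38.3% and 37.8% of all genes either way. There 16.3% and 16.0% of all genes were higher. All macrophages against Mki67-zero tumour cells gave 51 higher of 52 and 45 higher of 54, with none lower, beside 55.2% and 55.1% of all genes either way and 25.7% and 23.5% higher. That macrophage class includes its Mki67-positive cells, 32.6% and 23.7% of it. With Mki67-zero macrophages alone, the sums were 534 against 377 CPM and 490 against 440. There 17 of 46 and 22 of 49 genes were higher, with 2 and 4 lower. Of all genes tested, 23.2% and 21.5% were higher and 33.5% and 34.4% lower in that comparison.

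Hist1h1a (H1.1), a linker histone best known from thymus, testis and spleen, had the largest macrophage ratio of the genes tested in each library. Its level was 0.172 CPM in Mki67-positive tumour cells of the control and 0.104 of the SG-free library, on 11 and 6 UMIs, and no UMI lay in Mki67-zero tumour cells. In Mki67-positive macrophages it was at 23.5 and 40.7 CPM, 137 (72.3 to 286) and 393 (174 to 1097) times the tumour level. In Mki67-positive T cells it was at 21.6 and 17.96 CPM, 125 (54.6 to 299) and 173 (69.7 to 514) times. Mki67-zero macrophages held 3.66 and 4.40 CPM, at least 54.6-fold and 84.6-fold higher than the level that 3 counts would give in the Mki67-zero tumour cells of that library. A UMI was found in 15.9% and 26.0% of Mki67-positive macrophages, 21.3% and 22.1% of Mki67-positive T cells, and 0.440% and 0.274% of Mki67-positive tumour cells, although the tumour cells were the deepest. Of H1 UMIs it gave 3.60% and 5.26% in Mki67-positive macrophages and 0.0315% and 0.0135% in Mki67-positive tumour cells.

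The small chromosome 13 group of Hist1h2ah, Hist1h2bk, Hist1h4i, Hist1h2ag and Hist1h2bj (chr13:22035122-22043658, build GRCm38.p6) was also low in tumour cells. This division was chosen after its values were seen, so its numbers are a description. The 5 genes summed to 40.2 and 30.1 CPM in Mki67-positive tumour cells and to 141 and 127 CPM in Mki67-positive macrophages, ratios of 3.50 (3.16 to 3.88) and 4.21 (3.70 to 4.77). In Mki67-positive T cells they summed to 90.2 and 111 CPM, 2.24 (1.73 to 2.86) and 3.70 (3.12 to 4.34) times the tumour level, and in T cells without Krt20 or C1q UMIs 3.51 and 5.58 times. The groups of 17, 29 and 10 genes had macrophage ratios from 1.10 to 1.71. The pair on chromosome 11, Hist3h2ba and Hist3h2a, had 21 and 15 UMIs in Mki67-positive tumour cells and 6 and 8 in macrophages, ratios of 5.82 (1.92 to 14.9) and 13.5 (4.96 to 33.9). Within the group, Hist1h2bk was at 3.63 and 4.06 CPM in tumour cells and at 24.8 and 27.6 in macrophages, while Hist1h4i was 1.72 (1.42 to 2.06) and 1.89 (1.46 to 2.42) times higher. Hist4h4, the lone gene of chromosome 6, was at 7.82 and 7.47 CPM in tumour cells and at 35.0 and 37.2 CPM in macrophages, 4.48 (3.61 to 5.52) and 4.98 (3.90 to 6.30) times. Hist1h1e was at 0.977 (0.905 to 1.05) and 0.826 (0.763 to 0.892) times the tumour level.

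**Figure D4:**
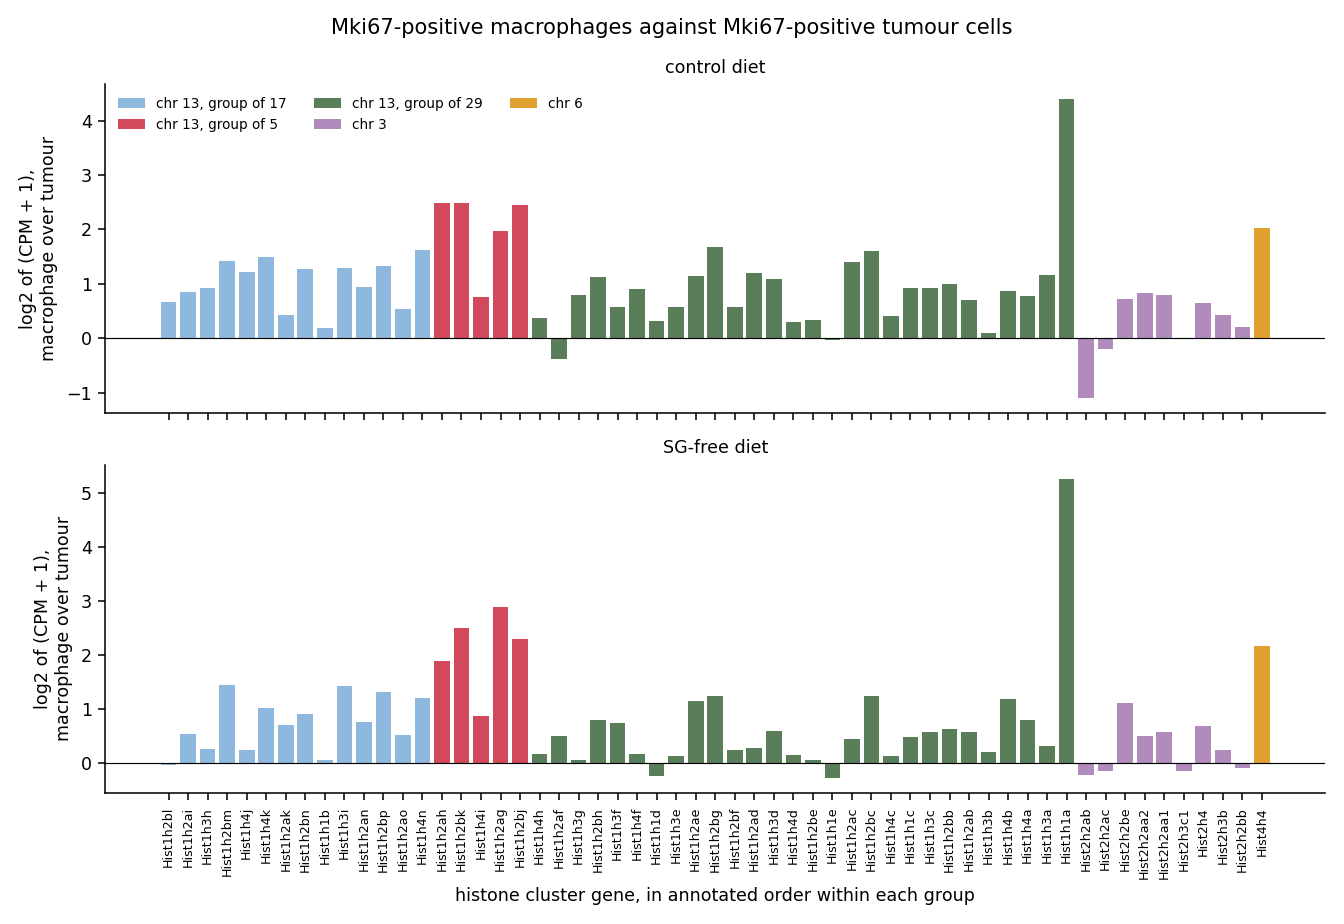
Log2 ratio of CPM + 1 in Mki67-positive macrophages over Mki67-positive tumour cells (y axis) for each cluster gene tested (x axis, in annotated order, coloured by genomic group), with the control library above and the SG-free library below. Hist1h1a has the tallest bar in both, at count ratios of 137 and 393, and 4 of the 5 genes of the small chromosome 13 group stand above their neighbours.

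Tumour cells with Car9, a carbonic anhydrase induced by low oxygen, had slightly fewer cluster transcripts. Cells with at least 2 Car9 UMIs were set against cells with none, within the Mki67 states. Among Mki67-positive cells the sum was 1380 against 1470 CPM in the control, a ratio of 0.939 (0.916 to 0.961), and 1564 against 1983 in the SG-free library, 0.789 (0.777 to 0.801). Among Mki67-zero cells it was 359 against 379 CPM, 0.945 (0.895 to 0.997), and 351 against 479, 0.732 (0.709 to 0.755). Of the genes tested 1 was higher and 3 lower of 54 in Mki67-positive control cells, 1 and 10 of 56 in SG-free ones, 0 and 10 of 45 in Mki67-zero control cells and 1 and 16 of 44 in SG-free ones. Of all genes, 8.8%, 7.19%, 13.8% and 13.6% were past 1.5-fold either way in these comparisons. The counts moved with the settings: the 4 genes past the limit in Mki67-positive control cells became 0 with 5 CPM added and 14 with at least 5 Car9 UMIs, and the 10 in Mki67-zero control cells 1 and 19. With 5 CPM added, 2 genes were left past it in each state of the SG-free library. The Car9-high SG-free cells were deeper than those without Car9, with medians of 36293 against 28311 UMIs when Mki67-positive and 23961 against 17666 when Mki67-zero.

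The higher gene was Hist1h4i in each case. It stood at 34.0 against 22.3 CPM in Mki67-positive control cells, 1.52 (1.30 to 1.78), and 21.6 against 13.6 in SG-free ones, 1.59 (1.37 to 1.85). In Mki67-zero cells it was at 15.5 against 10.8 CPM, 1.44 (1.09 to 1.88), which did not reach the limit, and 13.3 against 8.13, 1.63 (1.35 to 1.96). Some genes were lower with Car9 where Mki67 was 0. Hist1h1b was at 11.9 against 20.7 CPM, 0.574 (0.421 to 0.767), and 9.97 against 22.4, 0.444 (0.369 to 0.533). Hist1h1e was at 43.2 against 64.5 CPM, 0.670 (0.572 to 0.780), and 63.8 against 118, 0.542 (0.503 to 0.582), of which the first stayed within the limit with the added CPM. Hist1h2ae was within it in both, at 0.889 (0.713 to 1.10) and 0.929 (0.814 to 1.06). In Mki67-positive cells Hist1h1b was nearly level, at 1.04 (0.973 to 1.10) and 0.908 (0.871 to 0.946). The S phase list moved alongside: none of its 20 genes was lower in Mki67-positive Car9-high cells, but 8 and 9 were in Mki67-zero ones, and of the G2/M list 3 and 13 were.

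The sums of tumour cells were higher in the SG-free library. In Mki67-positive tumour cells the sum was 1.28 times (1.27 to 1.29) as high in the SG-free library, and in Mki67-zero cells 1.17 times (1.15 to 1.19). Of 59 genes 2 were higher and none lower, and of 52 genes 1 was higher and none lower, where 2.93% and 5.51% of all genes were past 1.5-fold either way, so these shares are near or under the background. The genes were Hist1h1e in both states and Hist1h1d in Mki67-positive cells. With 1 library per diet, a difference between diets and one between libraries cannot be told apart. Hist1h1e was at 230 CPM in the control and 354 in the SG-free library in Mki67-positive cells, 1.54 (1.51 to 1.57), and at 61.6 and 102 CPM in Mki67-zero cells, 1.66 (1.59 to 1.74). Hist1h1d was at 59.2 and 93.5 CPM, 1.58 (1.51 to 1.65), and at 12.4 and 16.6, 1.33 (1.201 to 1.48). Hist1h1c lay just inside the limit, at 1.44 (1.38 to 1.51) and 1.51 (1.42 to 1.61), the last of these 1.49 with the added CPM.

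Hist1h1b differed less between the libraries than the other linker histones, at 1.205 (1.18 to 1.23) and 0.968 (0.884 to 1.06). Hist1h1e was higher in the SG-free library in every bin of the S share, at 256 against 201 CPM in bin 1, 466 against 290 in bin 2, 452 against 268 in bin 3 and 245 against 159 in bin 4. Hist1h1d was at 53.8 against 49.6, 111 against 74.1, 134.3 against 66.7 and 76.6 against 46.2 CPM. In Mki67-positive cells Hist1h4i was at 0.659 (0.607 to 0.716), or 0.673 with the added CPM, which is just within the limit, and Hist1h2bc at 0.783 (0.743 to 0.824). The S phase and G2/M lists had no gene past the limit in Mki67-positive cells, with median log2 ratios of -0.23 each. None of the 10 replacement histone genes tested was past it there.

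**Figure D5:**
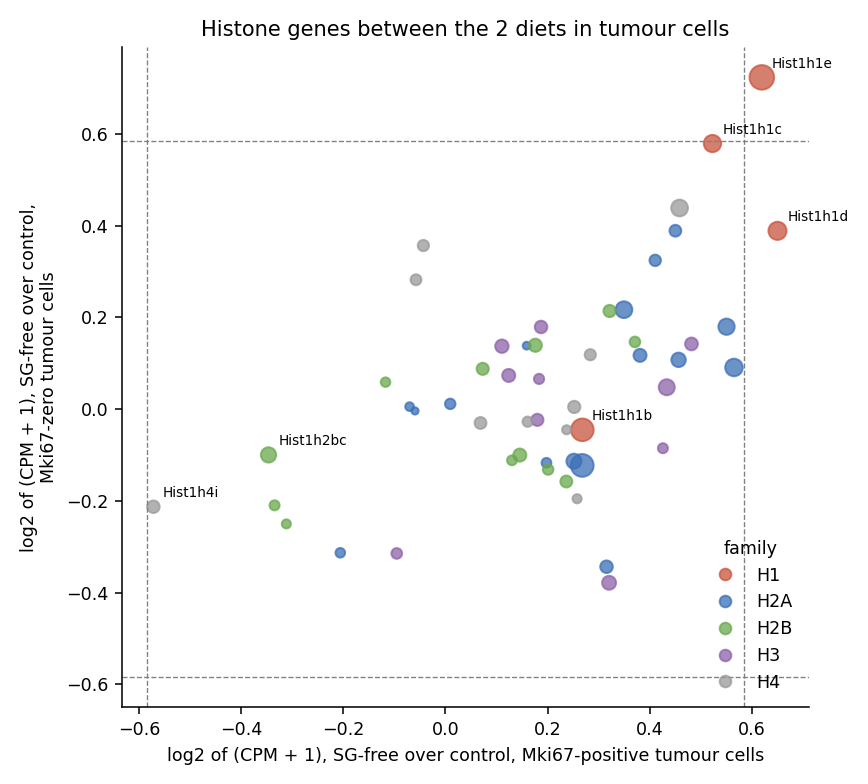
Log2 ratio of CPM + 1, SG-free over control, in Mki67-positive (x axis) and Mki67-zero (y axis) tumour cells for the 52 cluster genes with enough UMIs in both, coloured by family, with larger points for higher levels and dashed lines at 1.5-fold. Hist1h1e lies outside both lines, with count ratios of 1.54 and 1.66, and Hist1h1d outside the vertical line alone.

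In T cells the sums of the libraries lay close together, while the sum over all macrophages was lower in the SG-free library. Mki67-positive T cells were at 1.02 times (0.956 to 1.08) and Mki67-zero T cells at 0.916 times (0.809 to 1.04) the control level in the SG-free library. Of 39 genes 4 were higher and 5 lower in Mki67-positive T cells, and of 10 genes 1 was higher and 5 lower in Mki67-zero ones, where 19.7% and 20.3% of all genes were past the limit. All macrophages were at 0.882 times (0.856 to 0.908), with 1 gene higher and 12 lower of 52. There 8.56% of all genes were past the limit, 3.18% higher and 5.38% lower. Fewer SG-free macrophages had Mki67 UMIs, 23.7% (20.5 to 27.3) against 32.6% (29.1 to 36.2). Within the states the sums were 1.10 times (1.06 to 1.14) in Mki67-positive and 0.919 times (0.867 to 0.975) in Mki67-zero macrophages, with 5 higher and 5 lower of 49 and 5 higher and 7 lower of 28, where 10.5% of all genes were past the limit in each. Hist1h2bc was lower in the SG-free library in both states, at 103 against 167 CPM, 0.615 (0.525 to 0.719), and 71.9 against 119, 0.605 (0.525 to 0.696). Hist1h2af was higher in Mki67-positive macrophages, at 46.4 against 17.8 CPM, 2.61 (1.87 to 3.67). In T cells the linker histone Hist1h1e was at 303 against 267 CPM in Mki67-positive and 85.3 against 86.5 in Mki67-zero cells.

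Several cluster genes code for near-identical messages, and reads that match more than 1 copy could have been dropped or split in counting. Levels of single copies within a family are uncertain for that reason.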

How the data were processed

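Single cells of mouse subcutaneous tumours were measured in 2 libraries, 1 per diet. The deposited counts are filtered UMI counts of each gene by barcode; the pipeline was Cell Ranger, 7.1.0 per the file headers but 2.2.2 per the submitters' processing notes, on mm10. T cell receptor contigs came from the deposited annotations. The members and gene lists were chosen with earlier results of these data known.

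Barcodes under 300 detected genes or over 20% mitochondrial UMIs were dropped. Counts were summed per library and class and scaled to 1000000, with exact Poisson, Clopper-Pearson and conditional binomial 95% limits, which cover counting error only. A ratio of CPM + 1 of 1.5 or more, or its inverse, on at least 30 UMIs was called. Named genes were mostly taken from those with at least 100 UMIs in each library, summed over tumour cells, T cells and macrophages, and from those at the limit. Not all such genes were named. The Hist1h1a comparison and the genomic groups were singled out after their values were seen. Scrublet's own threshold marked 2 and 0 cells and so did not work; no doublets were removed, and leaving out scores over 0.25 (1.92% and 1.83% of cells) was an alternative. Alternatives also covered the pseudocount, the UMI minimum, the gates and depth. Promoters are RefSeq windows of GRCm38.p6, searched in Python. Python 3.11.15, numpy 2.4.6, scipy 1.17.1, pandas 2.3.3, scanpy 1.11.5 and matplotlib 3.10.9 were used, and the ratio script was tested on simulated data. In simulated Poisson counts for the tumour Mki67 split, 74.8% (control) and 90% (SG-free) of 2-fold changes were called. Of unchanged genes, 0% and 0% were called in that split, 8.75% and 7.67% in T cells and 3.07% and 4.27% in macrophages.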

Additional observations from a re-analysis of the deposited data

Results flagged for a closer look

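Over tumour and T cells split by Mki67 and macrophages taken as a whole, the genes past 1.5-fold between the diets in opposite directions in different classes were Hist1h1d and Hist1h2bc. Hist1h1d was at 1.58 times the control level in Mki67-positive tumour cells of the SG-free library and at 0.591 times in Mki67-zero T cells, where its interval ran from 0.296 to 1.16. Hist1h2bc was at 2.61 times (1.54 to 4.62) in Mki67-zero T cells and at 0.586 times (0.528 to 0.649) in macrophages. With macrophages split by Mki67 too, Hist1h1b was at 0.571 times (0.274 to 1.16) in Mki67-zero T cells and 1.615 times (1.212 to 2.166) in Mki67-zero macrophages. The difference between the classes was not tested for any of these genes, and each class is 1 library per diet. Mki67-zero T cells of the control library, which enter all 3, held 1702 CPM of hemoglobin genes and those of the SG-free library none.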

How the results depend on the processing

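Of 146 alternatives run on 17 counts, 112 stayed within 1.5 times the main count. In the thinned alternatives the classes were set anew on the thinned counts. The 48 genes higher with Mki67 in both tumour libraries ranged from 37 (pseudocount 5 CPM) to 52 (0.2 CPM). The 6 genes within 1.5-fold became 15 and 2 with these pseudocounts, 2 with at least 100 UMIs, 13 with at least 1 UMI, 3 with at least 2 Krt20 UMIs and no T cell receptor or C1q UMI (the strict gate) and 1 after thinning to 5000 UMIs. The class with at most 2 cycle UMIs was added after the data were seen.

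Genes higher in Mki67-positive T cells, 15 in the control and 28 in the SG-free library, became 3 and 8 with at least 100 UMIs, 50 and 53 with at least 1 UMI, and 1 and 1 after thinning to 1000 UMIs. In T cells without Krt20 and C1q UMIs the SG-free count became 16.

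Between Car9 states, the 4 genes past 1.5-fold in Mki67-positive control cells became 0 (pseudocount 5), 14 (at least 5 Car9 UMIs) and 22 (thinned), and the 10 in Mki67-zero control cells 1, 19 and 19 in the same order, or 5 with at least 100 UMIs. The 11 in Mki67-positive SG-free cells became 2 (pseudocount 5) and 17 (0.2), and the 17 in Mki67-zero ones 2 (pseudocount 5), 11 (strict gate) and 26 (at least 5 Car9 UMIs).

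Between diets, the 1 gene in Mki67-zero tumour cells became 4 (pseudocount 0.2), 2 (without high Scrublet scores) and 2 (strict gate). The 9 in Mki67-positive and 6 in Mki67-zero T cells became 0 and 0 with at least 100 UMIs, and 21 and 33 with at least 1. The 13 in macrophages became 6 (pseudocount 5) and 7 (at least 100 UMIs). The causes were not tested beyond the change of UMIs or genes that each setting makes. No paired analysis was possible because each diet has 1 library.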
